A study of Homo sapiens with 12 samples.

Results

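In LNCaP cells, a group of 391 genes had lower RNA levels after treatment with the androgen dihydrotestosterone (DHT) than in hormone-starved cells, in both the control line and a line without Bag-1L. A gene was chosen when its mean level over the 12 libraries was at least 1 CPM (a gene's count scaled to a common library total) and when, in each line, the higher DHT replicate was at most the lower vehicle replicate divided by 1.5. Of 63677 gene identifiers, 14103 reached that mean level, and 391 of these, 2.77%, met the rule. The DHT and vehicle values chose the genes, so the size of their DHT difference is given as a description without a test. The mirrored rule for genes that were higher with DHT was met by 344 genes.

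LNCaP is an established line of androgen-responsive human prostate cancer cells. The labels of both lines carry the word TALEN, a nuclease built to cut a chosen site. Whether the control cells received a cutting nuclease was not stated. In the Bag-1L KO line the TALEN was aimed at the CTG start codon of Bag-1L, the largest of the BAG1 protein isoforms, and the study's methods describe sequenced knockouts beside vector controls. Each line was grown in full medium (FM) with fetal bovine serum, or was starved of hormone for 72 h in charcoal-treated serum and then given ethanol (EtOH, the vehicle) or 10 nM DHT for 16 h, with 2 replicates in each of the 6 groups. The EtOH and DHT cells therefore shared starvation and differed in the hormone. The FM cells differed from them in the serum as a whole. They also had no stated starvation, vehicle or treatment time, and the study's methods name phenol red-free medium for starvation only. Androgen therefore cannot be told apart in FM from other serum components, the medium or the schedule. Nothing in the labels stated that replicates came from separate clones, and p-values measure the spread between these libraries.

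DHT is a steroid hormone that is best known for raising genes such as KLK3 in prostate cells. Androgen also lowers many genes, either through corepressors that act at the gene or through proteins that the hormone first induces. Genes lowered by androgen in prostate cancer cells are known to include surface proteins, neuronal genes and growth regulators, and several of them come back when androgen is withdrawn.

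Gene counts totalled 20826843 to 30354666 per library, at which 3 counts correspond to 0.0988 to 0.144 CPM. The luminal prostate markers were all detected, with a summed level of 2918 to 4949 CPM, whereas the summed immune markers reached at most 0.121 CPM and the basal markers at most 1.335 CPM. The stromal markers summed to 15.6 to 38.8 CPM, nearly all from COL1A1 (15.2 to 38.5 CPM). The endothelial markers, without PECAM1, summed to 5.10 to 9.49 CPM, nearly all from VWF (4.92 to 9.44 CPM). Of the neuroendocrine markers, the sum lay between 2.68 and 17.4 CPM and was lowest in control FM. BAG1 itself ranged from 76.3 to 106 CPM in the control libraries and from 43.9 to 64.0 CPM in the KO libraries. A gene-level count does not check the loss of Bag-1L, whose start codon lies in an RNA that also encodes the shorter Bag-1 forms. Replicates were least alike in control EtOH, where the median gene of the 391 differed by 0.227 (absolute log2), and without replicate 2 of that group the rule gave 491 genes. Reads that were given to no gene, mostly for aligning to several places, made up 31.5% of that library and 26.9% to 30.2% of the others, and their part in the result was not tested.

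Most of the 391 genes were protein coding (344 genes, 88.0% against 84.4% of all 14103 genes). Long noncoding RNAs made up 31 genes (7.93% against 7.75%), and 10 genes were not in the GENCODE annotation. The shares of both types were close to those of all 14103 genes. Counts of the 391 genes were low, with a median of their mean levels of 6.24 CPM against 26.8 CPM for all 14103 genes, uncorrected for gene length. Their median DHT level was 2.51-fold below EtOH in control and 2.06-fold below EtOH in KO. In 193 genes the level was at least 2-fold lower in both lines, and in 20 genes at least 4-fold lower. Among all 14103 genes the median log2 ratio of DHT to EtOH was -0.14 in control and -0.08 in KO, and DESeq2 or TMM scaling moved the control ratio by 0.13 or 0.11 (log2), after which 299 of the 391 genes still met the rule. Just inside the rule lay CCNI, with a smallest ratio between lower EtOH and higher DHT replicate of 1.50015, ADGRB2 with 1.50112 and SEMA6B with 1.50119, and just outside lay SUSD4 with 1.49996, MYCL with 1.49756 and ANXA9 with 1.49743.

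Of 10 genes listed from textbook knowledge as lowered by androgen, 4 met the rule. CAMK2N1, an inhibitor of the calcium and calmodulin-dependent kinase CaMKII, stood at 58.8 and 55.6 CPM in the control EtOH libraries and at 87.7 and 79.8 in the KO EtOH libraries. With DHT it stood at 7.56 and 7.81 CPM in control and at 20.8 and 20.1 in KO, and in FM at 1.69 and 1.66 CPM in control and at 1.45 and 1.6 in KO. All EtOH libraries were thus far above all DHT libraries, and the FM libraries lay lower still. ACKR3, an atypical receptor that scavenges the chemokine CXCL12, measured 221 and 208 CPM in control EtOH, 46.5 and 41.7 in DHT and 20.6 and 18.4 in FM. In KO it measured 363 and 342 CPM in EtOH, 136 and 140.1 in DHT and 26.6 and 24.4 in FM. For ACKR3, too, FM lay below DHT without overlap in both lines, and DHT left more RNA in KO than in control. CCN3, a secreted matricellular protein, had 4.31 and 3.51 CPM in control EtOH, 0.422 and 0.66 in DHT and 0.173 and 0.302 in FM, against 8.5 and 8.49 CPM in KO EtOH, 1.28 and 1.51 in KO DHT and 0.421 and 0.356 in KO FM. FOLH1, the surface protein PSMA used as a target in prostate cancer imaging, behaved otherwise. It measured 638 and 591 CPM in control EtOH, 223 and 234.3 in DHT and 399.6 and 415 in FM, so that FM lay between the other groups. In KO it had 917 and 940.2 CPM in EtOH, 530.4 and 496 in DHT and 491 and 492 in FM, and FM and DHT were close together. For FOLH1, 20.8% of the 50-base words of its exons also occur in another annotated gene, so its count is uncertain. The listed genes that did not meet the rule included OPRK1, MET, BCL2, UGT2B15 and UGT2B17.

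The genes with the largest DHT differences (means of the log2 ratios of both lines, mean level at least 5 CPM) were led by PLPPR1, a neuronal membrane protein involved in neurite outgrowth. It had 20.5 and 14.9 CPM in control EtOH and 1.57 and 1.36 in control DHT, a 12.1-fold difference. In KO EtOH it stood at 50.5 and 52.6 CPM and in KO DHT at 7.68 and 9.1, a 6.14-fold difference. Its level in starved cells was thus higher in KO than in control, and KO DHT stayed above control DHT. GASK1B, a Golgi-associated protein, had 25.3 and 21.5 CPM in control EtOH, 2.26 and 2.09 in control DHT, with 13 and 15.9 CPM in KO EtOH and 2.9 and 2.07 in KO DHT. Here control was the higher line in EtOH, and with DHT the lines overlapped. CBLN2, a secreted organizer of synapses, had 247 and 240.4 CPM in control EtOH, 36.3 and 36 in control DHT, then 403 and 388 in KO EtOH and 98.5 and 99.3 in KO DHT. LRRN1, a neuronal leucine-rich repeat protein, had 62.9 and 42.7 CPM in control EtOH against 12.3 and 8.51 with DHT, and in KO 111 and 105 CPM against 24.2 and 23. The remaining genes of this order were CA8, a carbonic anhydrase-related protein, TGM3, a transglutaminase, MCTP1, a calcium-binding membrane protein, CCDC80, a matrix-associated secreted protein, SPTLC3, a subunit of the enzyme that starts sphingolipid synthesis, PMP22, a myelin protein, MAB21L4, GLYATL3, BCHE, which encodes butyrylcholinesterase, and FFAR2, a receptor for short-chain fatty acids. Among these 10 genes the fold difference in control ran from 6.43 for TGM3 down to 4.0 for PMP22, and in KO from 5.0 for CA8 down to 2.59 for BCHE. TGM3 shares 94.7% of its 50-base exon words with another annotated gene, and its count is uncertain.

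**Figure D1:**
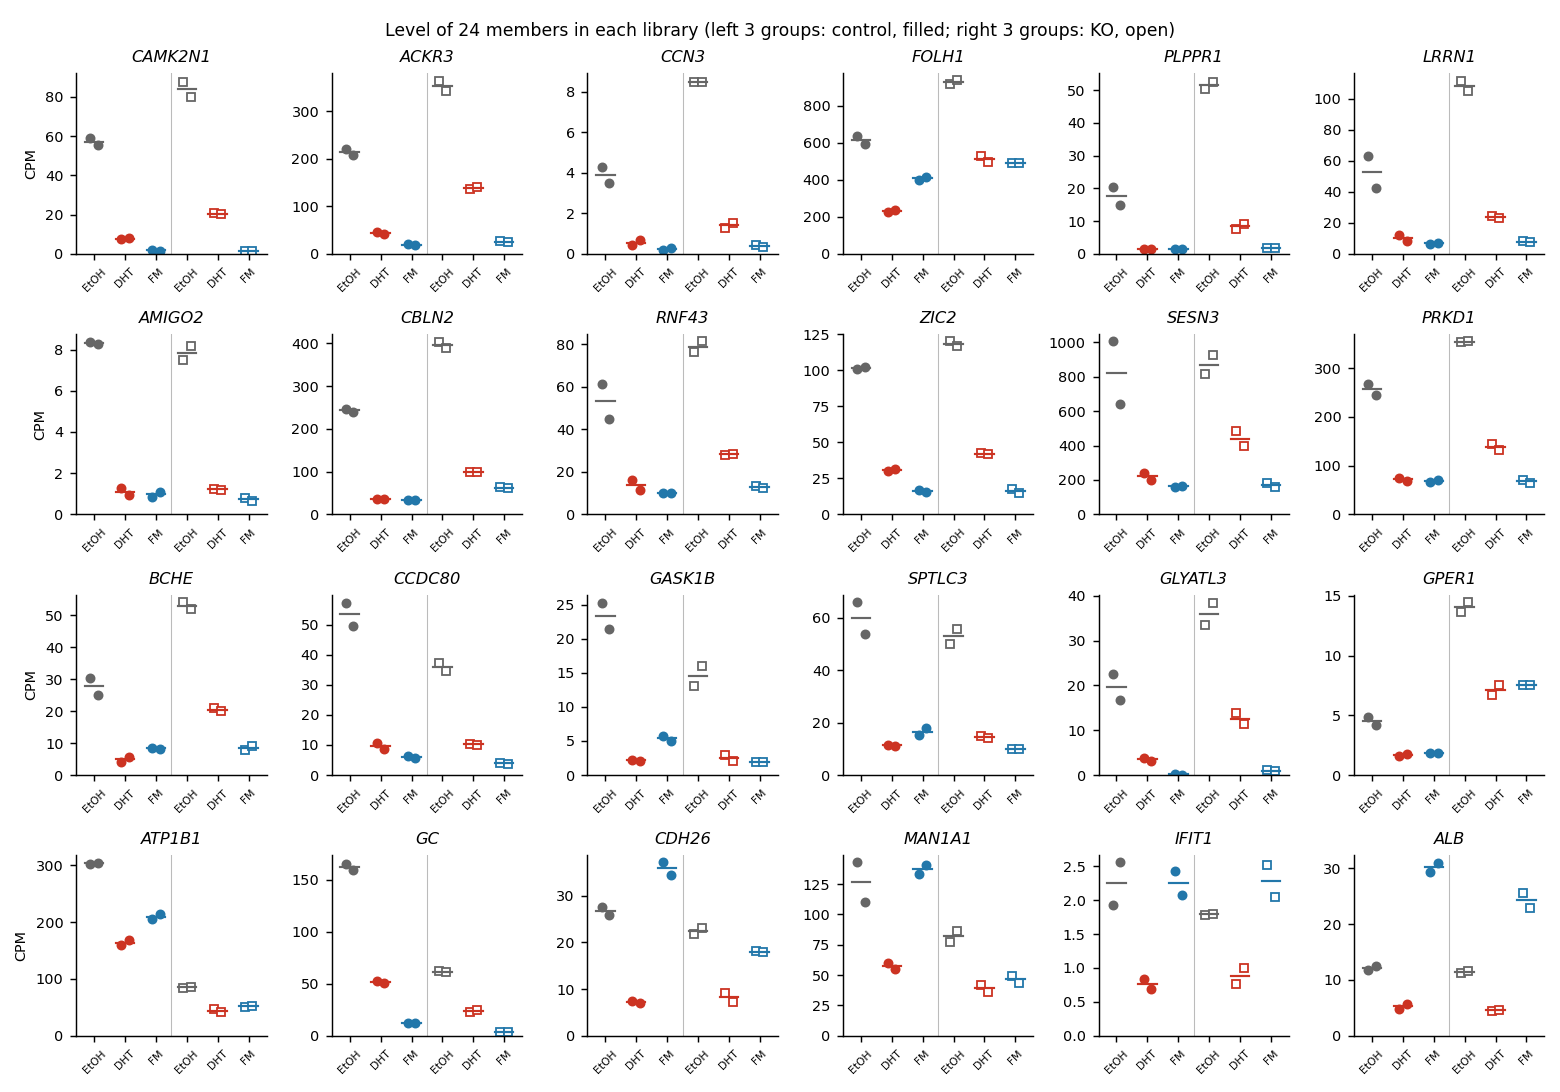
CPM of 24 of the genes in each of the 12 libraries, with EtOH, DHT and FM of control on the left (filled circles) and of KO on the right (open squares) in each panel, and a bar at each group's mean of 2. CAMK2N1 falls to 1.69 and 1.66 CPM in control FM, whereas ALB reaches 29.3 and 31 CPM in control FM, above its EtOH libraries.

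Full medium was then compared with starvation, since FM libraries took no part in the DHT criterion. The EtOH libraries did take part in it, so this comparison shares them with the rule and is described beside the share of all genes. By CPM, 249 of the 391 genes (63.7%) had every FM replicate at least 1.5-fold below every EtOH replicate in both lines, where 6.99% of all 14103 genes did. FM lay below EtOH in both lines, without overlap of replicates, in 347 genes (88.8%) against 28.9% of all genes, and above it in 3 genes against 25.8%. Of the 391 genes, 128 (32.7%) lay below DHT as well in both lines, against 19.7% of all genes. Another 55 (14.1%) lay between EtOH and DHT, against 1.34%, and 41 did not stand apart from EtOH the same way in both lines. The rule itself required low DHT values, which enter the counts below DHT and between. It therefore bears on how far these shares lie from those of all genes, and no conclusion is drawn from them. Without control EtOH replicate 2 the count of genes 1.5-fold lower in FM was 275.

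With DESeq2 (adjusted p at most 0.05 over all tested genes and a fold change of at least 1.5), 276 of the 391 genes were lower in FM than in EtOH in control and 3 were higher, and 292 were lower and 1 was higher in KO. Over all tested genes, 11.2% were lower and 9.55% higher in control, and 9.44% lower and 9.36% higher in KO. In both lines together 253 of the 391 genes were lower, against 6.5% of all tested genes. The median log2 fold change of the 391 genes was -1.16 in control and -1.36 in KO, whereas that of all tested genes was -0.01 in each line. Relative to DHT rather than EtOH, the FM level had a median log2 ratio of 0.07 in control and of -0.34 in KO, so the FM level of these genes was on the median near the DHT level in control and below it in KO. Both medians are descriptions, since the DHT libraries chose the genes. The adjusted p-values of single genes for FM against EtOH, given below, share the EtOH libraries with the rule and are descriptions too.

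Among genes with a mean level of at least 5 CPM, the ratio of FM to EtOH was lowest in GLYATL3, a relative of the glycine N-acyltransferases that conjugate acyl groups, which had 22.5 and 16.8 CPM in control EtOH, 3.76 and 3.19 in DHT and 0.303 and 0.0754 in FM. In KO it had 33.4 and 38.4 CPM in EtOH, 13.8 and 11.3 in DHT and 1.11 and 0.801 in FM. The lower control FM value lies under the 3-count level of its library. CAMK2N1 was lower in FM than in EtOH by a log2 fold change of -5.03 ± 0.20 (SE) in control (adjusted p = 1.35e-138, DESeq2) and of -5.72 ± 0.21 (SE) in KO (adjusted p = 3e-167). PLPPR1, with 1.43 and 1.55 CPM in control FM and 1.83 and 1.65 in KO FM, and TGM3 followed. FOXQ1, a forkhead transcription factor, went from 3.14 and 2.92 CPM in control EtOH and 4.71 and 3.53 in KO EtOH to 3 counts or fewer in each FM library. In these genes FM held less RNA than DHT did, in libraries that did not overlap, with the exception of PLPPR1 in control, whose FM and DHT libraries overlapped.

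At the other end, ALB, the gene of serum albumin, was lower with DHT but higher in FM. It had 11.8 and 12.4 CPM in control EtOH, 4.76 and 5.72 in DHT and 29.3 and 31 in FM, and 11.2 and 11.7 CPM in KO EtOH, 4.48 and 4.57 in KO DHT and 25.6 and 22.8 in KO FM. The FM libraries stood above both other conditions without overlap, and FM differed from EtOH by a log2 fold change of 1.37 ± 0.15 (SE) in control (adjusted p = 2.75e-17) and of 1.14 ± 0.16 (SE) in KO (adjusted p = 8.64e-12). C4orf46 rose in FM in control by 0.68 ± 0.15 (SE) on the log2 scale (adjusted p = 2.81e-05), with 14.8 and 13.5 CPM in EtOH and 21.3 and 22.2 in FM, and its change in KO of 0.37 ± 0.15 (SE) stayed under the fold minimum. EFCAB11 was the last of the 3 genes with FM above EtOH in both lines and did not pass the test, with 16 and 17 CPM in control EtOH and 17.5 and 17.2 in control FM. PRLR, the prolactin receptor, which was singled out after its values were seen, was the other gene that rose in control FM, by 0.81 ± 0.26 (SE) (adjusted p = 0.00832). Its KO change was 0.11 ± 0.27 (SE) (adjusted p = 0.805).

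**Figure D2:**
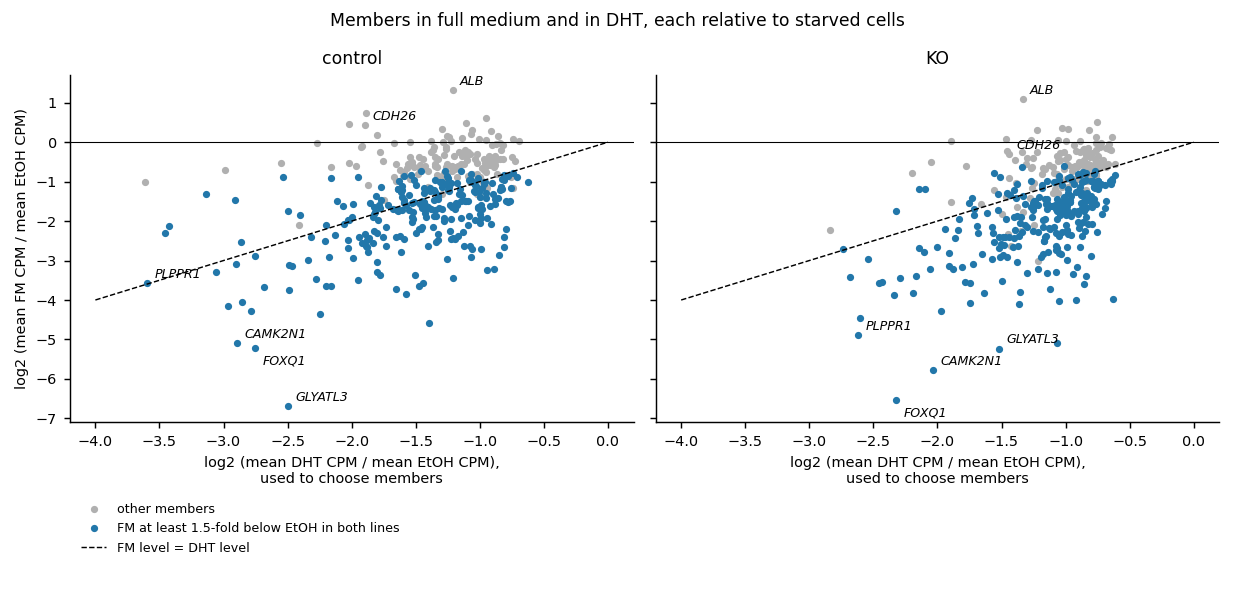
Each point is one of the 391 genes, with its log2 ratio of mean DHT to mean EtOH CPM on the x axis (which chose the genes) and of mean FM to mean EtOH CPM on the y axis, for control and KO. The 249 genes 1.5-fold lower in FM in both lines are blue, points below the dashed line have less RNA in FM than in DHT, and ALB lies above 0 in both panels.

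The genes were next sorted by what their products do, with 37 groups defined by gene symbol. The symbols did not catch every gene of a kind. GPER1 was outside the G protein-coupled receptor group and CBLN2 outside the synaptic group, so the counts hold for the groups as defined. At least 1 group held 160 of the 391 genes, and 231 fell in none. Several of the highest shares were in proteins at the cell surface. Of 35 expressed immunoglobulin and leucine-rich repeat surface proteins, 5 (14.3%) met the rule, against 2.77% of all expressed genes. These were AMIGO2, LRRN1, LRRN2, NCAM1 and LINGO1, adhesion and signalling proteins known from neurons, and all 5 were at least 1.5-fold lower in FM in both lines. AMIGO2 had 8.38 and 8.26 CPM in control EtOH and 7.49 and 8.17 in KO EtOH. Its DHT libraries held 1.27 and 0.954 CPM in control and 1.252 and 1.19 in KO, and its FM libraries 0.866 and 1.09 CPM in control and 0.803 and 0.667 in KO. FM and DHT overlapped in control, and EtOH stood far above both in each line. NCAM1, a neural cell adhesion molecule, was near the lower limit of expression, with 1.53 and 1.21 CPM in control EtOH and 0.52 and 0.717 in control FM.

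Of 57 axon guidance genes, 5 (8.77%) met the rule, among them the semaphorins SEMA3G and SEMA6B, which steer growing axons, and SRGAP3, which acts below the Slit receptor Robo. SEMA6B was the one farthest below DHT in FM, with 1.69 and 1.58 CPM in control DHT and 0.433 and 0.264 in control FM, then 1.81 and 1.87 in KO DHT and 0.229 and 0.134 in KO FM. SEMA3G remained at 28.8 and 22 CPM in control FM, where its DHT libraries had 24.1 and 18, and these overlapped. Of 57 genes in the synaptic group, 5 (8.77%) met the rule, all of which were at least 1.5-fold lower in FM. They included STXBP6 and STXBP5L, which bind the syntaxins of vesicle fusion, and the active zone protein RIMS4. STXBP5L had 177 and 122 CPM in control EtOH and 169.9 and 184 in KO EtOH, and with DHT 75.9 and 66.4 CPM in control and 94.5 and 87.2 in KO. In FM it had 73.9 and 79.5 CPM in control and 51.3 and 49.3 in KO, close to DHT in control and below it in KO. The 5 neuroendocrine markers summed to 7.91 to 9.58 CPM in control EtOH, 8.14 to 8.94 in control DHT and 2.68 to 3.73 in control FM, and to 17.05 to 17.4, 13.9 to 14.3 and 5.24 to 5.61 CPM in KO. EtOH and DHT thus overlapped in control and not in KO, and their part in the levels of the neuronal genes was not tested. Both desmocollin DSC2, a desmosomal cadherin with 3.06 and 1.56 CPM in control EtOH and 0.269 and 0.11 in control DHT, and CDH26 met the rule among 27 cadherins, and neither was 1.5-fold lower in FM in both lines.

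Secreted ligands and their receptors formed the next set. Of 59 growth factors and secreted regulators, 6 (10.2%) met the rule, including CCN3, the endothelin EDN2, the activin and inhibin subunit INHBB and the platelet-derived growth factor PDGFC. INHBB had 2.78 and 3.12 CPM in control EtOH, 0.806 and 0.88 in DHT and 0.303 and 0.415 in FM. Of 89 genes in the G protein-coupled receptor group, 9 (10.1%) met the rule, and 6 of them were 1.5-fold lower in FM. ADRA2C, an adrenergic receptor, had 2.38 and 3.82 CPM in control EtOH, 0.384 and 0.514 in DHT and 0.13 and 0.189 in FM, with 4.9 and 6.13 CPM in KO EtOH, 1.45 and 1.75 in KO DHT and 0.229 and 0.712 in KO FM. SSTR5, a somatostatin receptor, went from 1.73 and 2.1 CPM in control EtOH to 0.499 and 0.734 in DHT and 0.65 and 0.49 in FM. The sole receptor tyrosine kinase of 33 was RET, the receptor of GDNF family ligands, and it was singled out after its values were seen. RET had 11.6 and 10.4 CPM in control EtOH, 2.99 and 2.71 in DHT and 0.91 and 1.06 in FM, and 9.12 and 7.49 CPM in KO EtOH, 4.61 and 4.33 in KO DHT and 2.03 and 1.65 in KO FM.

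The Wnt pathway had 7 of 60 expressed genes (11.7%) among the 391, and these span the pathway from ligand to nucleus. In this pathway a secreted Wnt protein binds a Frizzled receptor and, in its canonical branch, stabilizes beta-catenin, which switches on genes that TLE corepressors otherwise hold down. The ligands were WNT5A, with 11.3 and 9.12 CPM in control EtOH, 3.49 and 3.04 in DHT and 3.94 and 5.02 in FM, and WNT4, with 2.98 and 3.94 CPM in control EtOH, 1.53 and 1.83 in DHT and 1.78 and 1.09 in FM. RNF43, a ubiquitin ligase that removes Frizzled receptors from the surface, showed the widest range. It had 61.2 and 45 CPM in control EtOH, 16.3 and 11.3 in DHT and 9.88 and 10.2 in FM, and 76.3 and 81.3 CPM in KO EtOH, 28.1 and 28.3 in KO DHT and 13.4 and 12.3 in KO FM. All RNF43 libraries were ordered EtOH above DHT above FM in each line, and 65.8% of its 50-base exon words occur in another annotated gene, so its count is uncertain. The corepressor TLE3 had 281 and 292 CPM in control EtOH against 121 and 108 in DHT and 113 and 95.9 in FM. TLE1, the receptor FZD3 and the Wnt carrier WLS completed the 7, of which 6 were 1.5-fold lower in FM and FZD3, at a log2 fold change of -0.34 ± 0.15 (SE) in control (adjusted p = 0.0667), was not. Of 54 genes of the TGF-beta and BMP pathway, 3 (5.56%) met the rule, namely INHBB, the decoy receptor BAMBI and the binding protein LTBP2. BAMBI was one of the few genes with less RNA in KO throughout, with 68.8 and 83.8 CPM in control EtOH and 28.6 and 25.8 in KO EtOH.

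Developmental transcription factors gave the largest number, 20 of 206 (9.71%), of which 13 were 1.5-fold lower in FM. ZIC2, a zinc finger factor of the forebrain, had 101 and 102 CPM in control EtOH, 30.1 and 31.4 in DHT and 17.1 and 15.9 in FM, with 120.1 and 117 CPM in KO EtOH, 42.4 and 41.8 in KO DHT and 17.6 and 15.1 in KO FM. The 3 conditions did not overlap in either line, and in FM the lines overlapped. The homeobox gene HOXC9 measured 17 and 18.3 CPM in control EtOH, 6.45 and 6.42 in DHT and 3.73 and 4.0 in FM, and TSHZ3 measured 10.1 and 8.3 CPM in control EtOH, 3.72 and 2.24 in DHT and 1.86 and 1.7 in FM. Zinc finger proteins outside this group were nearly missing, with 2 of 507 (0.394%), namely ZNF703 and ZBTB7C. Of 95 genes of the G2 and M phases 1 (1.05%) met the rule. None did of 63 genes of the G1 to S transition and replication, 22 histone genes and 13 integrins. Over all expressed genes the share was 2.77%, at which groups of these sizes would hold few genes or none. Their low counts therefore do not show that such genes were spared.

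Among intracellular signalling proteins, 12 of 245 protein kinases and their regulators (4.9%), 10 of 238 regulators of small GTPases (4.2%) and 4 of 151 phosphatases (2.65%) met the rule. DAPK1, a kinase linked to cell death, had 2.78 and 2.73 CPM in control EtOH, 0.537 and 0.22 in DHT and 0.65 and 0.302 in FM. In KO EtOH it stood at 8.84 and 8.81 CPM, in KO DHT at 2.57 and 2.7 and in KO FM at 0.65 and 0.40, so that the lines were far apart in EtOH and overlapped in FM. PRKD1, a protein kinase D, had 268 and 245 CPM in control EtOH, 74.8 and 68.8 in DHT and 67.5 and 69.8 in FM. The Rac activator PREX1 had 8.26 and 6.47 CPM in control EtOH, 2.84 and 1.39 in DHT and 1.91 and 1.85 in FM, and 0.956 and 0.623 in KO FM. DUSP5, a phosphatase that acts on the kinase ERK, was much lower in FM than with DHT, with 7.77 and 9.23 CPM in control EtOH, 3.65 and 4.92 in DHT and 0.91 and 1.7 in FM. Among regulators of stress and growth arrest, SESN3, a sestrin that restrains the growth kinase mTORC1, and TP53INP1, a target of p53, met the rule. SESN3 had 1006 and 641 CPM in control EtOH, a wide spread between replicates, 240.5 and 202 in control DHT and 161 and 165 in control FM, and 813 and 925 CPM in KO EtOH, 485 and 396 in KO DHT and 183 and 160.3 in KO FM.

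Further genes of growth factor and nutrient signalling were singled out after their values were seen. GRB10, an adaptor that dampens insulin receptor signalling, had 808 and 648 CPM in control EtOH, 183 and 166 in DHT and 175 and 170.5 in FM. In KO it had 1026 and 1069 CPM in EtOH, 399.5 and 398 in DHT and 231 and 214 in FM, above control in the DHT and FM libraries and in EtOH. CCNG2, an unconventional cyclin linked to cell cycle arrest, had 198 and 169 CPM in control EtOH, 47.4 and 52.7 in DHT and 25.7 and 27.5 in FM. The FM libraries of CCNG2 lay below the DHT libraries in both lines, with KO at 68.3 and 61.4 CPM in DHT and 30.8 and 30.8 in FM. PIK3IP1, an inhibitor of the kinase PI3K, had 6.52 and 4.64 CPM in control EtOH and 0.996 and 1.13 in control FM, and the PI3K regulatory subunit PIK3R1 had 87.5 and 73.2 CPM in EtOH and 44.2 and 44.1 in FM. DEPTOR, an inhibitor of mTOR, had 14.7 and 13.4 CPM in control EtOH, 5.26 and 4.37 in DHT and 7.62 and 7.05 in FM, so that FM lay above DHT. MXI1, an antagonist of MYC, had 81.6 and 68.8 CPM in control EtOH and 32.9 and 34.1 in control FM. In control, FM was lower than EtOH past the threshold for all 6 genes. Their log2 fold changes ran from -2.72 for CCNG2 to -0.80 for PIK3R1. Of the whole 391 genes, 276 (70.6%) passed there as well. Because the 6 were picked with their values known and the EtOH libraries also served the rule, no conclusion is drawn from that count.

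Transporters and channels included 3 of 27 genes of the potassium channel group (11.1%) and 3 of 27 ABC transporters (11.1%). Among solute carriers 8 of 227 (3.52%) met the rule, near the 2.77% of all expressed genes. Among other ion channels 1 of 64 (1.56%), CLIC2, did. ABCA1, which exports cholesterol, had 4.11 and 2.46 CPM in control EtOH, 0.806 and 0.697 in DHT and 0.607 and 0.679 in FM. ABCB11, the bile salt exporter, kept 1.82 and 1.21 CPM in control FM and 3.37 and 2.36 in KO FM, and the multidrug exporter ABCG2 kept 0.91 and 1.13 CPM in control FM and 1.07 and 0.756 in KO FM. Neither of these was 1.5-fold lower in FM in both lines. SLC6A19, an amino acid transporter of gut and kidney, went from 4.87 and 3.31 CPM in control EtOH to 0.614 and 0.477 with DHT, and in KO from 15 and 12.5 to 3.46 and 4.21 CPM. SLC30A4, a zinc transporter, had 332 and 256 CPM in control EtOH, 130.4 and 115 in DHT and 195 and 209 in FM. The 3 genes of the potassium channel group were KCNN3, KCNS3 and KCNIP3, which encodes a channel-interacting protein. Of these, KCNIP3 alone was 1.5-fold lower in FM in both lines. It had 16.8 and 15.7 CPM in control EtOH and 5.89 and 5.39 in control FM.

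Metabolic and matrix genes were represented by 9 of 128 lipid enzymes (7.03%), 6 of 65 matrix genes (9.23%), 10 of 103 proteases and inhibitors (9.71%), 4 of 73 steroid and glucuronidation enzymes (5.48%) and 5 of 86 glycosyltransferases and sulfotransferases (5.81%). All lipid enzymes but 1 were 1.5-fold lower in FM. SPTLC3 had 66 and 53.8 CPM in control EtOH, 11.6 and 11 in DHT and 15.2 and 18 in FM. PLD1, a phospholipase that makes phosphatidic acid, had 2.33 and 2.22 CPM in control EtOH and 0.269 and 0.147 in DHT, and DEGS2, a desaturase of sphingolipid synthesis, went from 7.17 and 12.2 to 1.69 and 2.64 CPM between the same groups. HSD3B1, which takes part in androgen synthesis, measured 4.31 and 4.52 CPM in control EtOH, 1.73 and 1.32 in DHT and 2.12 and 2.83 in FM. The proteases and inhibitors included SERPINI1, or neuroserpin, with 20.4 and 20.4 CPM in control EtOH and 3.76 and 6.24 in DHT, and TMPRSS6, the matriptase that regulates iron uptake, with 5.28 and 6.7 CPM in EtOH and 1.96 and 2.46 in DHT.

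Of 54 interferon-stimulated and antigen presentation genes, 4 (7.41%) met the rule and none of the 4 was 1.5-fold lower in FM in both lines, their median log2 ratio of FM to EtOH being -0.005 in control and -0.23 in KO. IFIT1, which binds foreign RNA, had 1.93 and 2.57 CPM in control EtOH, 0.844 and 0.697 in DHT and 2.43 and 2.08 in FM, and 1.78 and 1.8 CPM in KO EtOH, 0.758 and 0.994 in KO DHT and 2.52 and 2.05 in KO FM. CMPK2, a mitochondrial nucleotide kinase, had 12.2 and 10.3 CPM in control EtOH, 4.72 and 4.51 in DHT and 11 and 11.3 in FM. In both genes FM overlapped with EtOH in control and lay above DHT. IFIH1, the RNA sensor MDA5, and IFITM1, with 29.8% of its 50-base exon words in another gene, made up the group. TET1, an enzyme that oxidizes methylated cytosine, had 2.21 and 1.56 CPM in control EtOH, 0.806 and 0.734 in DHT and 2.04 and 2.72 in FM.

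**Figure D3:**
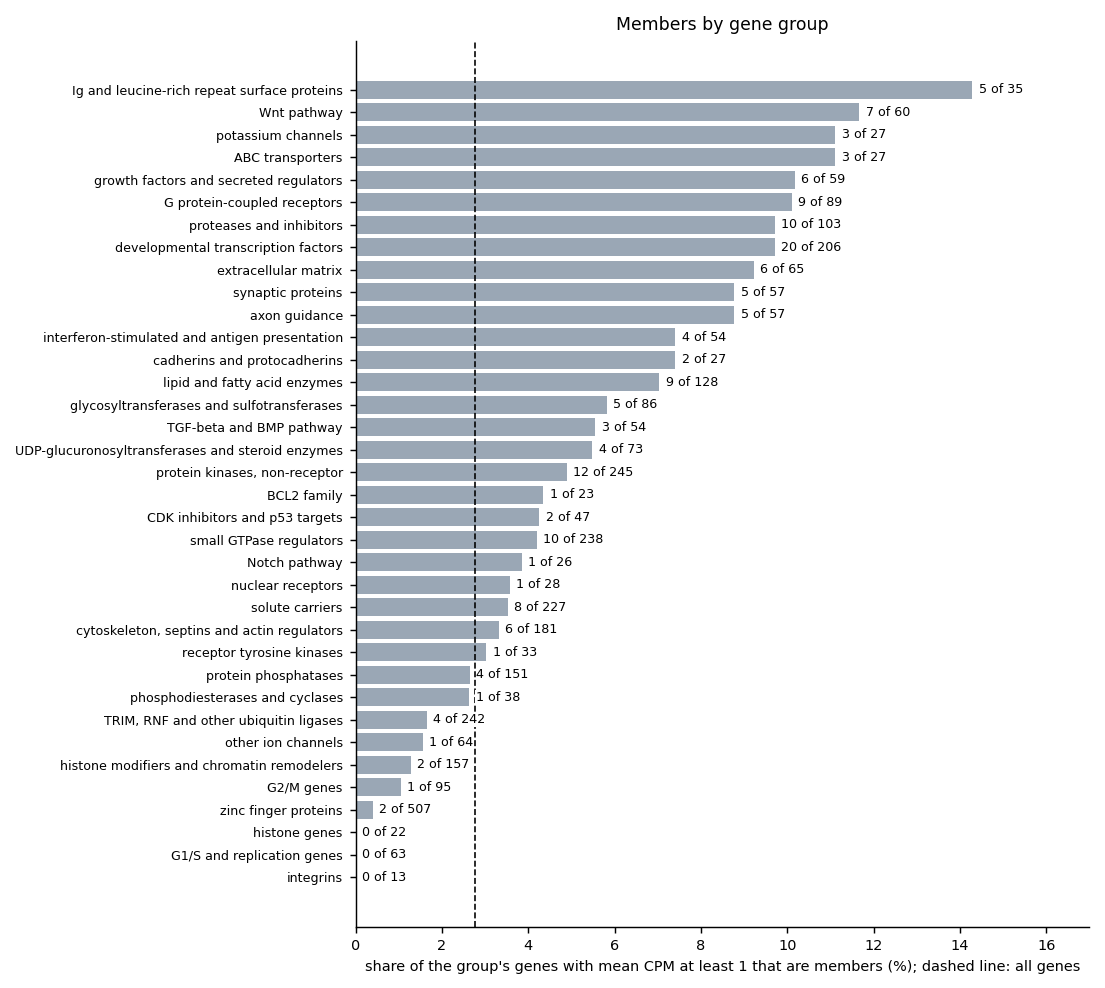
Share of the expressed genes of each gene group (all but the list of genes known to be lowered by androgen) that belong to the 391, in percent on the x axis, with the number of genes beside each bar and a dashed line at 2.77%, the share over all expressed genes. Surface proteins with immunoglobulin or leucine-rich repeats (14.3%) and the Wnt pathway (11.7%) have the longest bars, and zinc finger proteins (0.394%) and replication genes near 0.

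Promoters were then read for short sequence words. RefSeq start sites (GRCh38.p14, 250 bases before to 50 after) matched 282 of the 391 genes and 10307 expressed genes by symbol. The word AGAACA, or TGTTCT on the other strand, the unit of textbook steroid hormone response elements, was in 12.1% of the promoters of these genes and in 8.5% of all. Paired as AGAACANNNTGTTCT, the inverted repeat of such elements, it was in none of either set. The AP-1 word TGACTCA or TGAGTCA was in 4.965% against 2.71%, the word TATAAA or TTTATA in 10.6% against 5.34%, GGGCGG or CCGCCC in 59.9% against 70.7% and the E-box CACGTG in 6.38% against 10.4%. The median GC content was 64.7% against 65.7%. These shares are descriptions of short windows, and a match is not a bound site. Promoters of CCDC80, PMP22 and RNF43 are shown from 250 bases before to 20 bases after the start site, on the minus strand of GRCh38.p14, because these genes combined a large DHT difference with an AGAACA word, which is given in capitals:
CCDC80, chr3:112641124-112641393: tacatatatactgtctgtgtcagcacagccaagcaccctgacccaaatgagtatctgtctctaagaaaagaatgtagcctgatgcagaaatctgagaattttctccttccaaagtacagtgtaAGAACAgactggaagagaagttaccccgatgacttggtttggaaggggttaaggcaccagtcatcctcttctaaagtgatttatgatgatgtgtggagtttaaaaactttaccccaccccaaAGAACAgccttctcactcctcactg
PMP22, chr17:15265307-15265576: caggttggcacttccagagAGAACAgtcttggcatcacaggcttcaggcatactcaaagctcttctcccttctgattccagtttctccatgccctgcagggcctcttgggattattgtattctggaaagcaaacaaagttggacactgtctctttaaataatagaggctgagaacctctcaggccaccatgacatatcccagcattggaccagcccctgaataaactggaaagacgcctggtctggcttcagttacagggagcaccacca
RNF43, chr17:58417515-58417784: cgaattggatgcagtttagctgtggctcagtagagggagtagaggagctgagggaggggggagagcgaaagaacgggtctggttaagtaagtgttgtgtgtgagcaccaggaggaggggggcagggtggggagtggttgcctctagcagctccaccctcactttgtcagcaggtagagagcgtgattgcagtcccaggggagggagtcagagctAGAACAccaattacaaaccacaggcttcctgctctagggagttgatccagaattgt
In CCDC80 the words began 127 and 5 bases before the start site, in PMP22 231 bases before it and in RNF43 36 bases before it. CCDC80 went from 57.3 and 49.5 CPM in control EtOH to 10.7 and 8.62 with DHT, and from 37.2 and 34.6 to 10.48 and 9.98 CPM in KO. PMP22 went from 23.2 and 22.2 CPM in control EtOH to 5.64 and 5.72 with DHT, and from 29.7 and 26.5 to 5.93 and 6.8 CPM in KO.

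Some of the 391 genes lay next to each other. There were 25 pairs less than 50 kb apart, taking in 46 genes, on the GRCh37 annotation. Pairs among all expressed genes were not counted. The number therefore does not show whether these genes lie closer together than others. In 7 of these pairs the genes overlapped on opposite strands, for example SESN3 with LNCRNA-IUR, ADD3 with ADD3-AS1 and HOXC13 with HOXC13-AS. The strand setting of the counting was not given in the sources used here, so that the members of such a pair cannot be told apart. On chromosome 6, MMUT (49398073 to 49430966) and CENPQ (49431083 to 49460820) pointed away from each other, with ends 117 bases apart, followed by GLYATL3 (49467636 to 49495791). MMUT, a mitochondrial mutase, had 222 and 205 CPM in control EtOH, 78.5 and 88.5 in DHT and 58.1 and 59.4 in FM. Its neighbour CENPQ, a centromere protein, had 27.6 and 28.7 CPM in control EtOH, 12.1 and 13.8 in DHT and 23.8 and 25.3 in FM. MMUT and GLYATL3 were thus lower in FM than in EtOH, by -1.80 ± 0.11 (SE) for MMUT in control (adjusted p = 1.03e-56, DESeq2). CENPQ did not pass, at -0.14 ± 0.14 (SE) (adjusted p = 0.515). The EtOH libraries of this comparison also chose the genes, so these values are descriptions. On chromosome 13, ZIC2 and ZIC5 lay 10017 bases apart, and ZIC5 had 46.1 and 41.8 CPM in control EtOH, 19.9 and 21.2 in DHT and 16.3 and 15.1 in FM.

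The lines were then compared within each condition. The study's methods describe knockout cells isolated as single clones, and these libraries held no rescue line. Loss of Bag-1L and other differences between the lines therefore cannot be told apart. In FM, the one condition whose libraries took no part in the DHT criterion, 51 of the 391 genes (13%) were higher in KO than in control and 28 (7.16%) were lower by DESeq2, against 5.29% and 2.5% of all tested genes. The median log2 fold change was 0.07 for the 391 genes and -0.01 for all tested genes. In EtOH 72 genes (18.4%) were higher in KO and 17 (4.35%) lower, against 2.87% and 2.37% of all tested genes, with a median of 0.26. With DHT 117 genes (29.9%) were higher in KO and 11 (2.81%) lower, against 4.66% and 3.32%, with a median of 0.43. The EtOH and DHT libraries chose the genes, so that the counts and medians in EtOH and DHT and the following split are descriptions that support nothing. The DHT difference was larger in control for 309 of the 391 genes and larger in KO for 82, with a median gap of 0.24 (log2), and in 13 genes the lines differed by at least 2-fold. The count in FM rested on few libraries, being 36 without control FM replicate 2, 41 without KO FM replicate 2 and 49 without either of the other 2 FM libraries, in place of 79. In EtOH it was 57 and 52 without KO EtOH replicates 1 and 2, in place of 89, and with DHT 84 without control DHT replicate 2, in place of 128.

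Genes higher in KO FM were led by GLYATL3, PLA2G2A, GPER1 and SPOCK2. For GLYATL3 the log2 fold change of 2.34 rested on control FM replicate 2, which lay under 3 counts, being 1.61 and no longer past the threshold without it (adjusted p = 0.123, DESeq2) and 3.60 without replicate 1 (adjusted p = 0.0155). PLA2G2A, a secreted phospholipase, had 0.39 and 0.604 CPM in control FM and 2.1 and 2.14 in KO FM, a log2 fold change of 2.01 ± 0.36 (SE) (adjusted p = 1.82e-06). GPER1, a G protein-coupled receptor that responds to estrogen, had 1.82 and 1.85 CPM in control FM and 7.57 and 7.52 in KO FM, a change of 1.98 ± 0.24 (SE) (adjusted p = 1.74e-14). The matrix proteoglycan SPOCK2 had 4.25 and 3.43 CPM in control FM and 13.8 and 15.7 in KO FM, a change of 1.88 ± 0.20 (SE) (adjusted p = 3.84e-19). For PLA2G2A, GPER1 and SPOCK2 every KO library exceeded every control library of the same condition, also in EtOH and DHT. With DHT, GPER1 thus had 1.61 and 1.72 CPM in control against 6.69 and 7.55 in KO, and SPOCK2 had 2.38 and 2.86 CPM in control against 10.1 and 10.6 in KO.

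ATP1B1, the beta subunit of the sodium pump, was lower in KO in every condition. It had 206 and 214 CPM in control FM and 50.8 and 52.4 in KO FM, a log2 fold change of -2.09 ± 0.11 (SE) (adjusted p = 1.66e-83), and 303 and 305 CPM in control EtOH and 83.4 and 86.5 in KO EtOH. Even with DHT, control cells held more of it, at 159 and 169 CPM, than starved KO cells. GC, the vitamin D binding protein, had 12.3 and 12.5 CPM in control FM and 3.67 and 3.43 in KO FM, a change of -1.87 ± 0.16 (SE) (adjusted p = 5.81e-29). In EtOH its level was 165 and 159 CPM in control and 61.8 and 60.9 in KO, far above FM in both lines. MAN1A1, a Golgi mannosidase that trims N-glycans, and TOX3, a chromatin protein, were lower in KO FM by -1.63 ± 0.13 (SE) (adjusted p = 1.62e-33) and -1.59 ± 0.14 (SE) (adjusted p = 1.61e-26). NR2F1, an orphan nuclear receptor below the level of the naming rule and singled out after its values were seen, had 2.73 and 3.55 CPM in control FM and 0.421 and 0.40 in KO FM.

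**Figure D4:**
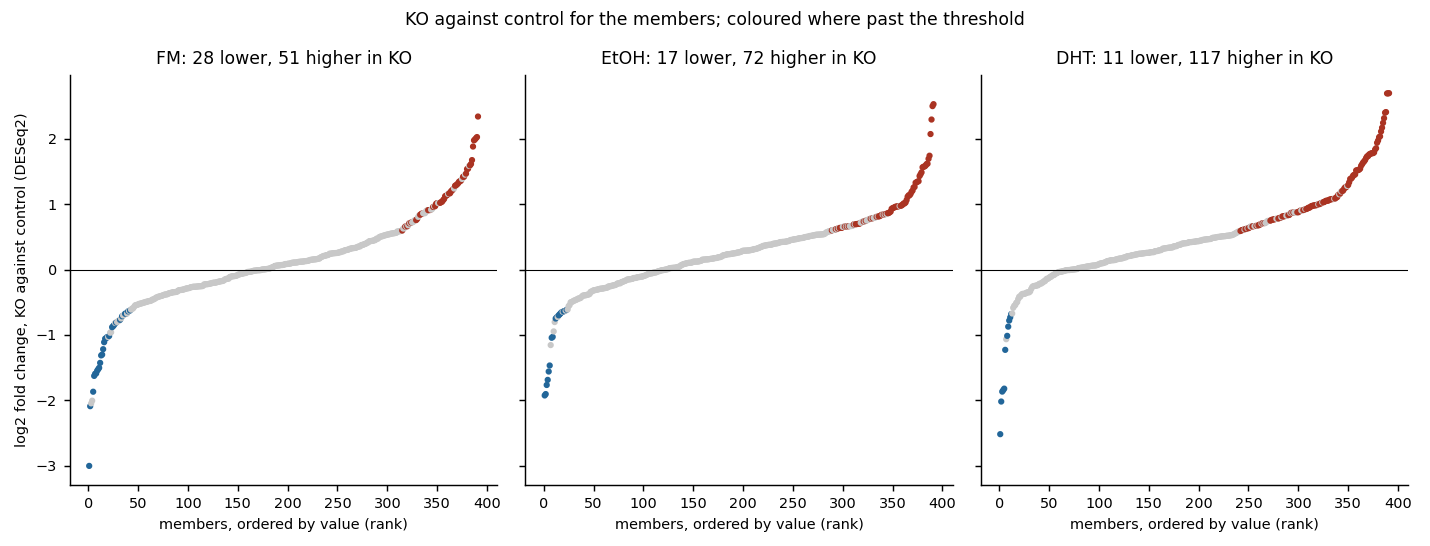
Log2 fold changes between KO and control (DESeq2, y axis) for the 391 genes, ordered by value along the x axis, in FM, EtOH and DHT. Genes past the threshold are coloured, 28 lower and 51 higher in FM, 17 and 72 in EtOH and 11 and 117 in DHT.

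The FM response itself also differed between lines for some of the genes. By a test of the difference of responses in the same fit, 20 of the 391 genes went down more or rose less in KO and 4 the other way, against 0.64% and 0.748% of all tested genes. The test shares the EtOH libraries with the rule. PLPPR1 showed the deepest FM level of these, its log2 fold change from EtOH to FM being -3.50 ± 0.24 (SE) in control and -4.83 ± 0.23 (SE) in KO. MAN1A1 had 143 and 109.8 CPM in control EtOH and 133.6 and 140.4 in control FM, without a change past the threshold. In KO it had 77.5 and 86.2 CPM in EtOH and 49.4 and 43.5 in FM, and fell by 0.76 on the log2 scale (adjusted p = 6.67e-08). CDH26 had 27.6 and 25.8 CPM in control EtOH and 37.2 and 34.5 in control FM, against 21.8 and 23 CPM in KO EtOH and 18.1 and 18 in KO FM, so that FM lay above EtOH in control and below it in KO. BCHE had 8.45 and 8.22 CPM in control FM and 7.84 and 9.21 in KO FM, where the lines overlapped, from EtOH levels of 30.3 and 25.1 CPM in control and 53.9 and 51.9 in KO, which did not.

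**Figure D5:**
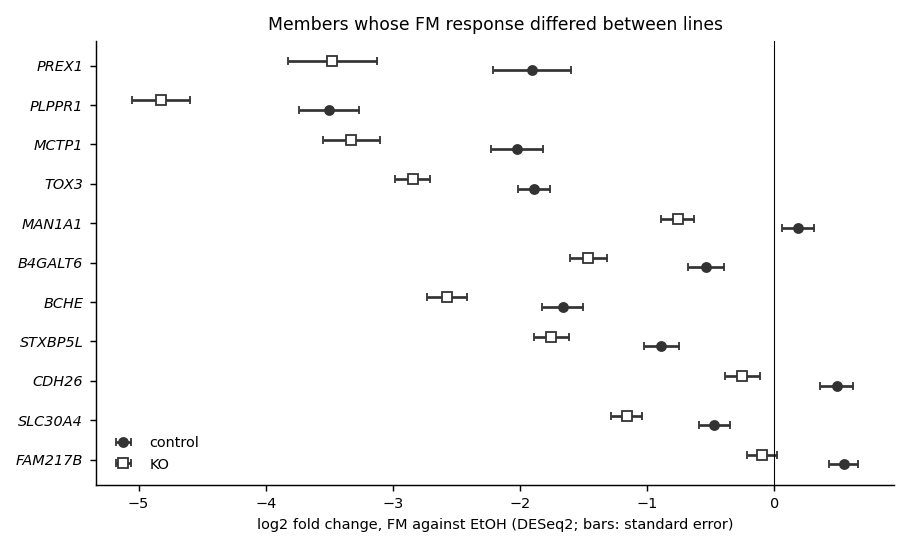
Log2 fold change from EtOH to FM (DESeq2, x axis, bars give the standard error) in control (filled circles) and KO (open squares) for the 11 named genes whose response differed between lines. In all 11 the KO value lies to the left of the control value, from -4.83 against -3.50 for PLPPR1 to -0.10 against 0.54 for FAM217B.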

How the data were processed

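Poly(A) RNA of 12 LNCaP libraries (control and Bag-1L KO, each in FM, EtOH and DHT, 2 replicates) was measured. The authors prepared stranded TruSeq libraries, mapped reads with TopHat2 (2.0.11) to GRCh37 and deposited raw counts per Ensembl gene from HTSeq (0.5.3p3). CASAVA (1.7) is also named in the submitters' processing notes. The Ensembl release and HTSeq's strand setting are not given in the sources used here. HTSeq leaves out reads with several alignments or overlapping genes, and these and other unassigned reads (26.9% to 31.5% of a library's tally) entered no total or test. Gene totals were 20826843 to 30354666, and 3 counts were taken as the floor of detection, which covers counting error only.

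CPM was computed here from the deposited counts and the sum of gene rows. The 391 members and the gene groups were chosen with earlier results of these data known. DESeq2 1.42.0 (R 4.3.3), the tool the study used, tested differences in one model of the 12 samples with 1 coefficient for each group, on genes with at least 10 counts in all, with Wald tests, unshrunken log2 fold changes and a threshold of an adjusted p (Benjamini-Hochberg) of 0.05 with a fold change of 1.5. The scripts were tested on simulated data. Alternatives were edgeR 4.0.16 (quasi-likelihood, TMM), other scalings, filters, factors and samples, a replicate block, and each library left out. Symbols and positions came from GENCODE on GRCh37, which held 55665 of 63677 identifiers, and promoters from RefSeq.

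Genes were named by rule: the 15 largest DHT falls among genes of at least 5 CPM, up to 4 genes of each gene group with 2 or more members, the 4 highest and 4 lowest ratios of FM to EtOH, the 4 largest KO rises and falls in FM, 3 genes either side of the factor, and the list of known androgen-lowered genes. Others are said to have been singled out.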

Additional observations from a re-analysis of the deposited data

Results flagged for a closer look

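The response to FM, taken as the log2 fold change from EtOH to FM, differed between KO and control in 11 of the named genes by a test of the difference itself (DESeq2, adjusted p at most 0.05 and a difference of at least 1.5-fold). In all 11 the KO value was the lower one, and without exception these genes belong to the 391 chosen with the same EtOH libraries. Over the whole 391, 20 genes differed in that direction and 4 in the other. MAN1A1 and TOX3 were named for low KO levels in FM, which enter the same difference. Among the 11, the largest difference was in PREX1, at -1.57 ± 0.47 (SE, adjusted p = 0.0493), followed by PLPPR1 at -1.32 ± 0.33 (adjusted p = 0.00783) and MCTP1 at -1.30 ± 0.30 (adjusted p = 0.00369). TOX3 differed by -0.95 ± 0.19 (adjusted p = 0.000133) and MAN1A1 by -0.94 ± 0.18 (adjusted p = 9.72e-05). B4GALT6, a galactosyltransferase of glycolipid synthesis, differed by -0.93, BCHE by -0.91, STXBP5L by -0.86 and CDH26 by -0.74. SLC30A4 differed by -0.69 and FAM217B by -0.64. The control EtOH replicates, which lay farthest apart of all groups, enter each of these differences, and their part in them was not tested.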

How the results depend on the processing

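The number of genes under the rule followed its settings closely. It was 391 as reported, 683 without a CPM minimum, 213 with a minimum of 5 CPM, 113 with a factor of 2 and 1034 with a factor below 1.5. It was 299 with either TMM or DESeq2 scaling, all within the 391, and 418 to 491 when an EtOH or DHT library was left out. A rule of DESeq2 falls in both lines gave 398 genes, of which 321 were shared. The count of genes 1.5-fold lower in FM, an alternative added after the data were seen, was 241 with either scaling and 251 to 275 without a library, against 249. Leaving out each library in turn gave 36 to 87 genes past the threshold for KO against control in FM (79 with all), 52 to 97 in EtOH (89 with all) and 84 to 134 with DHT (128 with all), above as well as below the full count, and the cause was not tested. For FM against EtOH the count ran from 252 to 306 in control (279 as reported) and from 262 to 321 in KO (293 as reported) over every alternative. The replicate numbers were not taken as a pairing, because 6 of the 15 correlations between groups of the difference between replicates were over 0.1 and the others ran down to -0.36. Those 6, from 0.16 to 0.64, were the pairs among control EtOH, control DHT, KO DHT and KO FM. Under a replicate block the counts were 278 and 291 for FM against EtOH, and 77, 89 and 129 for KO against control in FM, EtOH and DHT. Of the values for single named genes under the alternatives, 5013 kept their side of the threshold, 84 lost it and 21 gained it, and 12 without an adjusted p were left out. The sign changed in 42 of them, 0 of which were past the threshold in either fit.

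Groups held 2 libraries, and scarce genes near 3 counts were imprecise. Antisense partners, near-identical copies and the serum, medium and schedule of FM could not be separated with these counts.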
